A study of Mus musculus with 12 samples.

Results

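The interferon regulatory factors, written Irf in mouse gene symbols, are a family of transcription factors that turn on interferons and the genes interferons control. The members described here are Irf1, Irf2, Irf3, Irf4, Irf5, Irf7, Irf8 and Irf9. They were chosen by name, and each gene was read from its brightest probe set (a group of array probes for 1 gene) among those annotated with that symbol alone. These 8 genes stand among 19938 genes with a probe set chosen this way. All 8 had a mean signal above the 5.36 log2 limit used to leave out dim genes, so all 8 were among the 15273 genes tested.

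The 12 arrays (Affymetrix Mouse Gene 1.0 ST) held RNA of primary microglia, the macrophages that live in the brain, from mice, in 4 groups of 3. The groups were TLR4 knockout cells after ischemia (hypoxic or hypoglycemic conditions for 24 h), TLR4 knockout cells under control conditions, wild-type cells after ischemia and wild-type cells under control conditions. Cells of all 4 groups had a further 24 h with normal oxygen and glucose (reperfusion) before RNA was taken. The labels do not give the strain or age of the mice, how Tlr4 was altered, a batch, or whether replicate arrays stand for different cultures or animals. P-values therefore reflect the spread among these samples alone, and that spread may be technical. For the wild-type ischemia arrays the source name reads as control conditions while the title and the series' key give hypoxia, and the titles were followed.

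Some facts of the whole series touch these genes. Tlr4 itself read 8.39 to 8.97 log2 on the 6 arrays labelled knockout and 8.54 to 9.02 log2 on the 6 wild-type arrays, so the signal did not separate the genotypes, and those arrays are called knockout-labelled here. Where the Tlr4 probes lie relative to the altered stretch is not given, so this is no check of the labels. Of 14 microglia markers, 13 were above the dim limit, among them Csf1r, Itgam, C1qa and Fcrls, while Gpr34 was below it. Tmem119, Siglech and P2ry12, also among the 13, lay closer to the limit, at means of 6.51, 5.85 and 5.75 log2. B and T cells also use Irf4 and Irf8. Of 7 B and plasma cell markers 4 lay above the limit (Cd79b, Pax5, Blk and Mzb1, at means of 5.81 to 6.20 log2) and Cd79a, Ms4a1 and Jchain lay below it. Of 8 T and NK cell markers 3 lay above it (Cd3e, Cd8a and Nkg7, at means of 5.45 to 6.60 log2), while Cd3d, Cd3g and Cd4 were among those below. Their part in the levels of Irf4 and Irf8 was not tested. Arrays with the same number within a genotype deviated together, so a paired fit, with the number as a fixed block within genotype, is given beside the fit without the block. A random block, which treats the numbers within a genotype as draws with an estimated correlation, is given as well.

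In vertebrates these factors bind GAAA-rich elements of promoters through a conserved DNA-binding domain. Irf3 and Irf7 wait in the cytoplasm until kinases acting below pattern receptors, Tlr4 among them, phosphorylate them, and they then switch on type I interferon genes. Secreted interferon signals back through its receptor to Stat2, which joins Irf9 in ISGF3, the complex that binds the interferon-stimulated response element (ISRE) of its target genes, Irf7 included. Irf1 is induced through the STAT-binding GAS element and drives interferon-gamma target genes, Irf2 competes with Irf1 for the same sites, Irf5 drives inflammatory cytokines, Irf4 acts in alternative activation of macrophages, and Irf8 works with PU.1 to set up and keep the microglial state.

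The promoters of Irf1, Irf7 and Irf9 are shown because these are the members with changes that passed a test. That of Irf2 is shown because it held an ISRE match. Each is given 5′ to 3′ from position -250, counted from the annotated start, in lower case with matches to GAS (TTCNNNGAA) or ISRE (GAAA, any 2 bases, GAAA) in capitals. The sequences are from RefSeq on GRCm38.p6, and bases inside the annotated span of the gene were left out. Irf1 is on the plus strand at chr11:53769764-53770013, Irf7 on the minus strand at chr7:141266500-141266674, Irf9 on the plus strand at chr14:55603735-55603984 and Irf2 on the plus strand at chr8:46739495-46739744.
Irf1: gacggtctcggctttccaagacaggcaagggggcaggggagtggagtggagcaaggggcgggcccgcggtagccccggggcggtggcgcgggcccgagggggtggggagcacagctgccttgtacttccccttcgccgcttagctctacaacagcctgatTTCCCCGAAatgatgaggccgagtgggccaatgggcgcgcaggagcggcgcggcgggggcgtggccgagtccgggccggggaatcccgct
Irf7: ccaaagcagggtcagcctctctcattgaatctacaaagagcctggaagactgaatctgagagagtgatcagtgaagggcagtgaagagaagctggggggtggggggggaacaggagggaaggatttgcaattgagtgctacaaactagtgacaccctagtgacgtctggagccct
Irf9: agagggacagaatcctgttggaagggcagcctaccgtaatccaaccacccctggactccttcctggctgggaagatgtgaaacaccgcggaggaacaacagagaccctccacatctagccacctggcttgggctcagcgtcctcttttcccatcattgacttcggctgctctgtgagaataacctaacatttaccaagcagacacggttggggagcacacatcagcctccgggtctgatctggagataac
Irf2: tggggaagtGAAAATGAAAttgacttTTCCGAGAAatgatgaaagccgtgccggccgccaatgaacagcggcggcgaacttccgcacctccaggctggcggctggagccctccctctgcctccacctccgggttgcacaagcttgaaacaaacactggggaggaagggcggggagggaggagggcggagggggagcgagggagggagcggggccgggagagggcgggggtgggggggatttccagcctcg

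All 8 members had an entry in the promoter table, with 11 windows of 300 bases (250 before and 50 after a start). On both strands, GAS was matched in 3 of these 11 windows and ISRE in 1, against 8.3% and 3.44% of 32851 windows of all genes. Irf1 held TTCCCCGAA from position -90, counted from the start. Irf2 held GAAAATGAAA from position -241 and TTCCGAGAA from position -224. Irf8 held TTCTCGGAA from position -171 and TTCAGAGAA from position -153. Neither pattern of letters occurred in the windows of Irf3, Irf4, Irf5, Irf7 and Irf9. A match describes the letters and is not shown to be a bound site, and the lack of a match concerns only these letters in these windows.

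Irf7, Irf9 and Irf1 were the members with changes that passed, between genotypes after ischemia and, in the paired fit, with ischemia in wild-type cells. For Irf1 this rests on its brightest probe set, and a second, dimmer probe set did not show it. Irf7 and Irf9 were also lower in knockout-labelled control cells, without passing. In bulk RNA, fewer cells of a type and less RNA per cell cannot be told apart. After ischemia, 3 of 8 members were lower in knockout-labelled than in wild-type cells at an adjusted p under 0.05 in limma, where 0.648% of all genes tested were called lower and 0.714% in either direction. A random block in limma gave the same number, 3 of 8 (0.989% of all genes), and 4 of 8 had an unadjusted p under 0.05 (8.35% of all genes). In control cells 0 of 8 members passed that comparison in limma (0.0589% of all genes did), with 2 at an unadjusted p under 0.05 (7.14% of all genes). In knockout-labelled cells ischemia gave 0 of 8 in limma without the block (0% of all genes), with 0 at an unadjusted p under 0.05 (8.73% of all genes), and 0 in the paired fit (0.648% of all genes). Ischemia against control in wild-type cells gave 0 of 8 in limma without the block (0.0131% of all genes), with 4 at an unadjusted p under 0.05 (14.7% of all genes). The paired fit gave 3 of 8, all higher (3.73% of all genes, 2.99% higher), and the random block gave 1, Irf1 (0.773% of all genes). For the difference between the ischemia changes of the genotypes, limma without the block gave 0 of 8 (0% of all genes), with 3 at an unadjusted p under 0.05 (2.90% of all genes), the paired fit gave 1 of 8, Irf7, lower (0.308% of all genes, 0.295% lower), and the random block gave 0. The median change of the 8 members was -0.10 log2 in knockout-labelled ischemia against control, beside -0.00092 for all genes, and 0.21 log2 in wild-type ischemia against control, beside 0.01 for all genes.

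**Figure D1:**
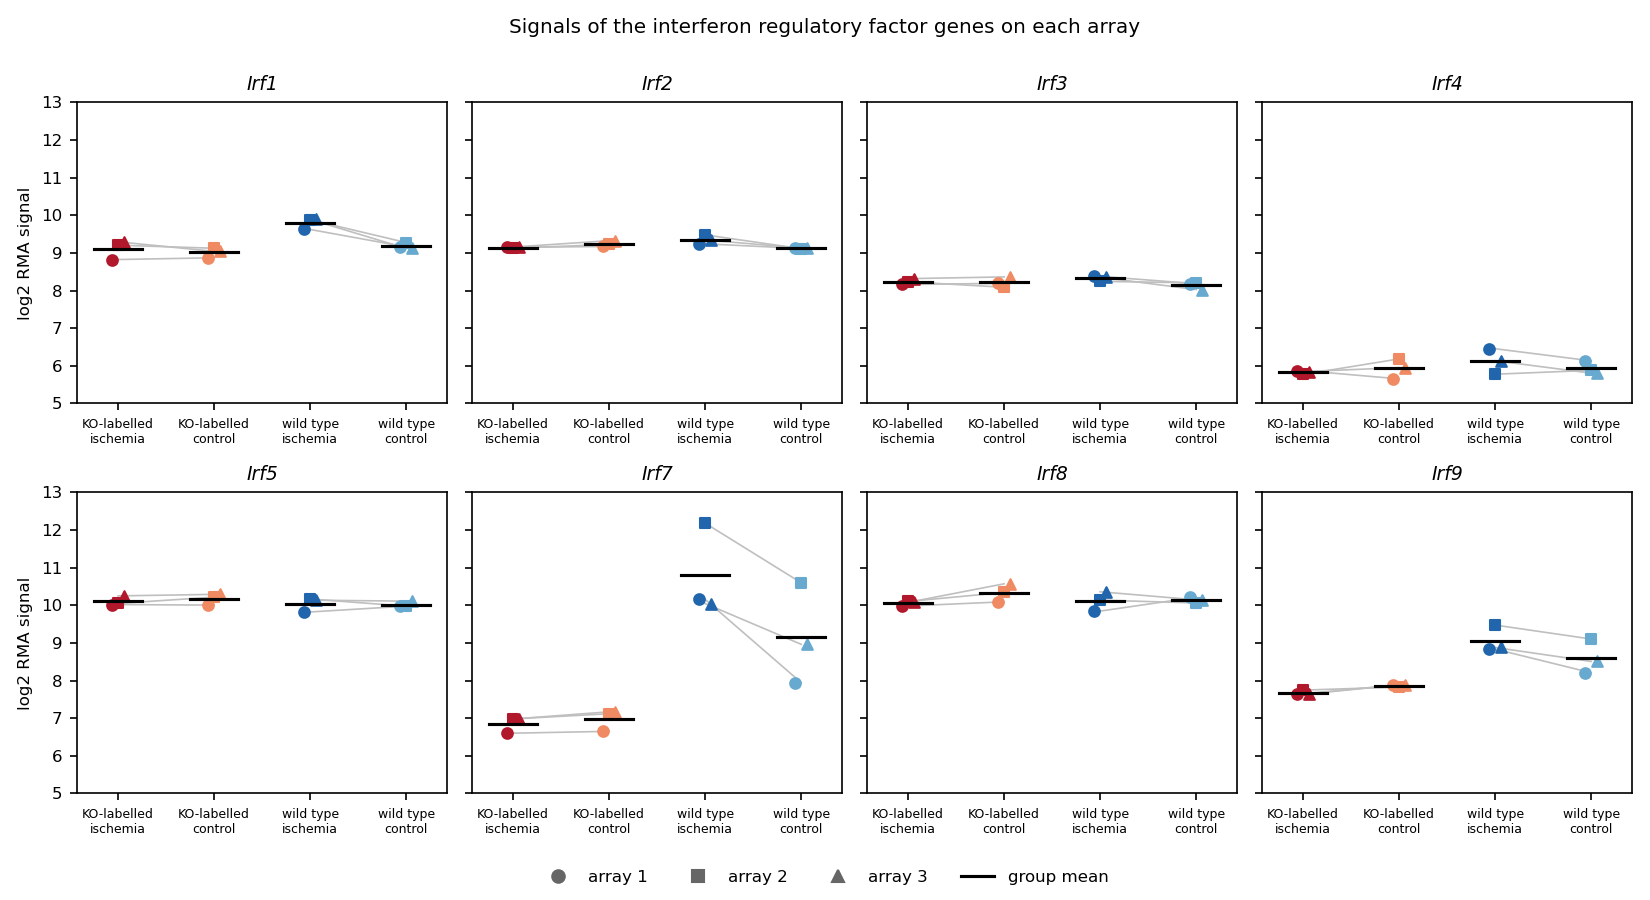
Signal of each member on each of the 12 arrays (log2 RMA signal, same axis for all panels), with groups on the horizontal axis, symbols for array number, grey lines between same-numbered arrays of a genotype and black bars for group means (n = 3). Irf7 spans 6.60 to 12.18 log2 and Irf9 7.63 to 9.47 log2, with every knockout-labelled array below every wild-type array, while the other members stay in narrower ranges.

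Irf7, which amplifies type I interferon production and is itself an ISGF3 target, varied most among the members. In knockout-labelled cells it read 6.60, 6.98 and 6.98 log2 after ischemia and 6.65, 7.12 and 7.17 log2 in control cells. In wild-type cells it read 10.16, 12.18 and 10.05 log2 after ischemia and 7.94, 10.60 and 8.96 log2 in control cells. All 6 knockout-labelled arrays lay below all 6 wild-type arrays, whereas wild-type ischemia and control arrays overlapped, with wild-type control array 2 above ischemia arrays 1 and 3. The spread within groups was larger for Irf7 than for 99.8% of genes tested, and it was larger in wild-type cells: the SD was 0.22 after ischemia and 0.29 in control cells of the knockout-labelled groups, against 1.20 after ischemia and 1.34 in control cells of the wild type.

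After ischemia Irf7 was 15.4-fold lower in knockout-labelled than in wild-type cells (log2 change -3.94, SE 0.61, limma adjusted p = 0.0108, n = 3 each). That call was lost without knockout-labelled ischemia array 1 (limma adjusted p = 0.0751) or ischemia array 3 (limma adjusted p = 0.0554), where the changes were -3.82 and -4.01. In control cells its log2 change between genotypes was -2.19 (SE 0.61, 95% interval -3.51 to -0.87). This did not pass (limma adjusted p = 0.540, unadjusted p = 0.0034). Without both wild-type arrays numbered 2 the control difference was -1.48 and passed (limma adjusted p = 0.0223).

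In knockout-labelled pairs the ischemia changes of Irf7 were -0.05, -0.14 and -0.19, a mean of -0.13 (paired-fit 95% interval -0.46 to 0.20). Within each wild-type pair Irf7 was higher after ischemia, by 2.21, 1.58 and 1.08 on the log2 scale in pairs 1, 2 and 3, a mean of 1.63 (SE 0.61, limma adjusted p = 0.287). It rose in the paired fit (SE 0.15, limma adjusted p = 8.07e-05) and did not pass with the random block (limma adjusted p = 0.0723 with an estimated correlation). Leaving out 1 array gave means of 0.93 (without wild-type ischemia array 2) to 2.34 (without wild-type control array 2), and 1.01 without wild-type control array 1. The difference between these ischemia changes, knockout-labelled minus wild type, was -1.75 on the log2 scale. It passed in the paired fit (SE 0.22, limma adjusted p = 0.00226) and not without the block (SE 0.86, limma adjusted p = 1.00) or with the random block (limma adjusted p = 0.676 with an estimated correlation). With 1 array left out it was -2.47 (without wild-type control array 2) to -1.06 (without wild-type ischemia array 2), and -1.14 without wild-type control array 1. The paired fit uses 1 spread per gene for both genotypes, while the pair changes of Irf7 had an SD of 0.072 in knockout-labelled and 0.57 in wild-type cells. Fitted as pairs on the wild-type arrays alone, the rise of Irf7 passed as well (limma adjusted p = 0.00159).

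Irf9, the DNA-binding subunit of ISGF3, followed the same order of groups as Irf7 over a smaller range. It read 7.63, 7.74 and 7.65 log2 after ischemia and 7.89, 7.83 and 7.89 log2 in control cells of the knockout-labelled groups. The wild-type groups read 8.84, 9.47 and 8.88 log2 after ischemia and 8.21, 9.10 and 8.51 log2 in control cells. Again all knockout-labelled arrays were below all wild-type arrays, and the knockout-labelled ischemia arrays were all below the knockout-labelled control arrays. After ischemia Irf9 was 2.62-fold lower in knockout-labelled than in wild-type cells (log2 change -1.39, SE 0.21, limma adjusted p = 0.00828). As for Irf7, the call was lost without knockout-labelled ischemia array 1 (limma adjusted p = 0.0610) or array 3 (limma adjusted p = 0.0516). In control cells the difference was -0.74 (SE 0.21, limma adjusted p = 0.540).

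In knockout-labelled pairs the ischemia changes of Irf9 were -0.26, -0.08 and -0.24, a mean of -0.19 (limma adjusted p = 0.751, paired fit 0.298). They were 0.63, 0.37 and 0.37 log2 in the wild-type pairs, a mean of 0.46 (SE 0.21, limma adjusted p = 0.332), and this rise passed in the paired fit (SE 0.098, limma adjusted p = 0.0228) but not with the random block (limma adjusted p = 0.103 with an estimated correlation). Leaving out 1 array gave 0.25 without wild-type ischemia array 2, 0.26 without wild-type control array 1 and 0.71 without wild-type control array 2. It was lost from the paired fit without wild-type pair 1 (limma adjusted p = 0.231) or pair 3 (limma adjusted p = 0.0657). The difference of the ischemia changes, -0.65 on the log2 scale, did not pass in limma without the block (adjusted p = 1.00), in the paired fit (adjusted p = 0.0899) or with the random block (adjusted p = 0.676 with an estimated correlation).

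Irf1, an activator of antigen-presentation and guanylate-binding protein genes, was high in wild-type ischemia alone. It read 8.82, 9.21 and 9.29 log2 after ischemia and 8.87, 9.12 and 9.04 log2 in control cells of the knockout-labelled groups, against 9.62, 9.88 and 9.89 log2 after ischemia and 9.16, 9.28 and 9.12 log2 in control cells of the wild type. The wild-type ischemia arrays were above all other arrays, and the other 3 groups overlapped. After ischemia Irf1 was 1.61-fold lower in knockout-labelled cells (log2 change -0.69, SE 0.13, limma adjusted p = 0.0322). This call was lost with only the compared groups in the fit (limma adjusted p = 0.113) and without any single array of the knockout-labelled ischemia group (limma adjusted p = 0.155, 0.0824 and 0.0532). It was also lost without wild-type ischemia array 2 or 3, wild-type control array 3 or knockout-labelled control array 2 (limma adjusted p = 0.0929, 0.115, 0.0514 and 0.0530). In control cells the difference was -0.17 (limma adjusted p = 0.753).

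Irf1 differed by -0.05, 0.08 and 0.25 log2 between ischemia and control in the knockout-labelled pairs (mean 0.10, limma adjusted p = 0.807). It was higher after ischemia by 0.46, 0.60 and 0.77 log2 in the wild-type pairs, a mean of 0.61 (SE 0.13, limma adjusted p = 0.242), and rose in the paired fit (SE 0.10, limma adjusted p = 0.00504), a call lost without wild-type pair 3 (limma adjusted p = 0.0510). Its wild-type control arrays lay within 0.16 log2 of each other. The difference of changes, -0.52, did not pass without the block (limma adjusted p = 1.00) or in the paired fit (limma adjusted p = 0.284). A second Irf1 probe set, dimmer at 6.65 to 7.31 log2, disagreed with the main probe set: its mean differed by -0.06 log2 between wild-type ischemia and control and by -0.01 log2 between knockout-labelled and wild-type cells after ischemia. With both probe sets averaged, the Irf1 genotype difference after ischemia was -0.35 and did not pass (limma adjusted p = 0.309). The wild-type ischemia change was then 0.28 and did not pass without the block (limma adjusted p = 0.305).

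**Figure D2:**
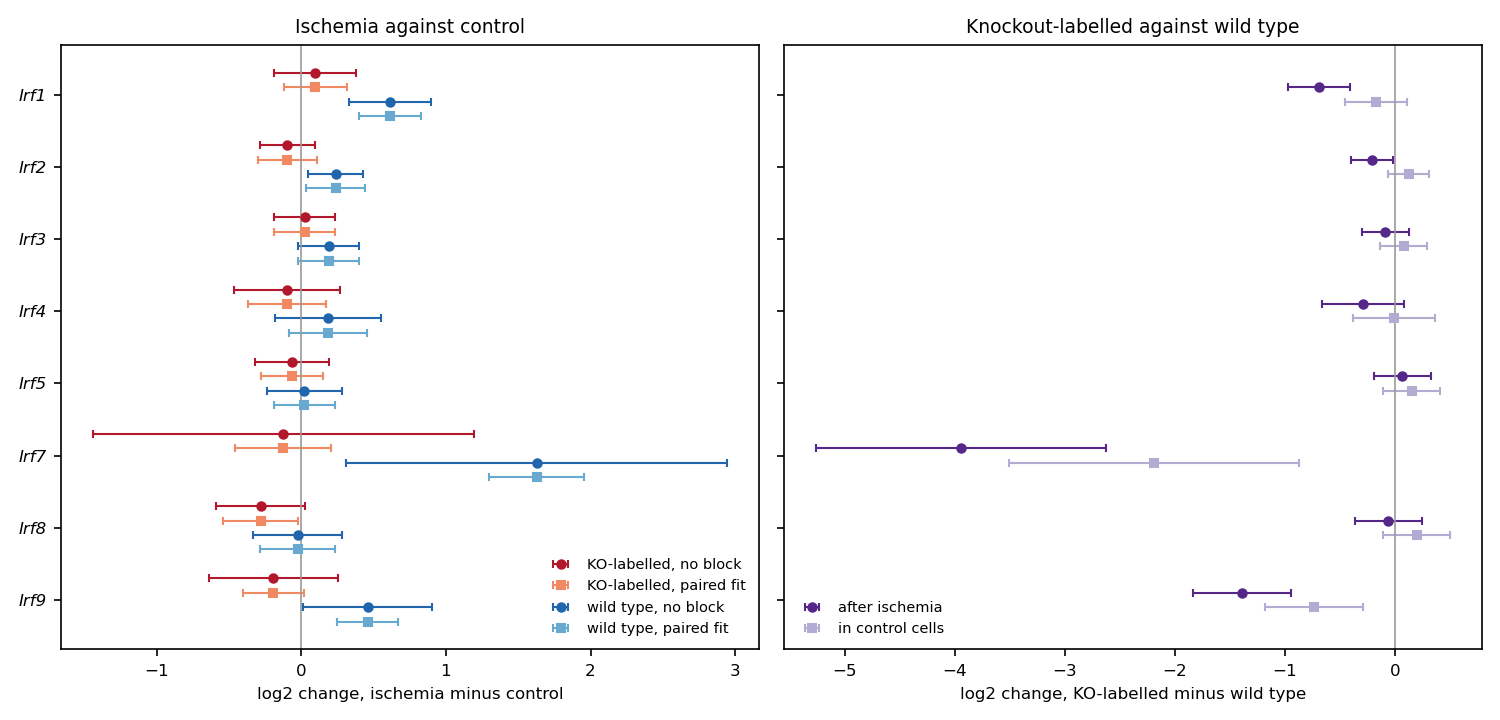
Log2 changes of the 8 members with 95% intervals from limma. Left, ischemia minus control in each genotype without the block and in the paired fit; right, knockout-labelled minus wild type after ischemia and in control cells. Irf7 has the largest changes and the widest intervals without the block. After ischemia in the right panel the whole intervals of Irf7, Irf9, Irf1 and Irf2 lie left of zero. Irf2 did not pass there (limma adjusted p = 0.514).

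Irf2, the antagonist of Irf1, had the smallest spread of the members and small changes. It read 9.15, 9.13 and 9.16 log2 after ischemia and 9.17, 9.23 and 9.33 log2 in control cells of the knockout-labelled groups, and 9.24, 9.48 and 9.35 log2 after ischemia and 9.12, 9.11 and 9.13 log2 in control cells of the wild type. Ischemia arrays lay below control arrays in the knockout-labelled cells and above them in the wild type, without overlap in either. The changes were -0.10 (SE 0.088, limma adjusted p = 0.710) in knockout-labelled cells and 0.24 (SE 0.088, limma adjusted p = 0.286) in wild-type cells, and neither passed. Their difference of -0.33 also did not pass (limma adjusted p = 1.00, paired fit 0.537).

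Groups without overlap are common in these data. In knockout-labelled ischemia against control, 2 members (Irf2 and Irf9) were lower without overlap, where 6.36% of all genes were. In wild-type ischemia against control, 3 members (Irf1, Irf2 and Irf3) were higher without overlap, where 9.38% of all genes were. Between genotypes after ischemia 4 members were lower without overlap in knockout-labelled cells (Irf1, Irf2, Irf7 and Irf9), where 8.07% of all genes were. In control cells 2 were lower (Irf7 and Irf9) and 1 higher (Irf2), where 4.52% and 5.37% of all genes were. In knockout-labelled pairs 4 of 8 members were lower in all 3 pairs, where 18.7% of all genes were, and in wild-type pairs 5 of 8 were higher in all 3, where 25.8% of all genes were.

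**Figure D3:**
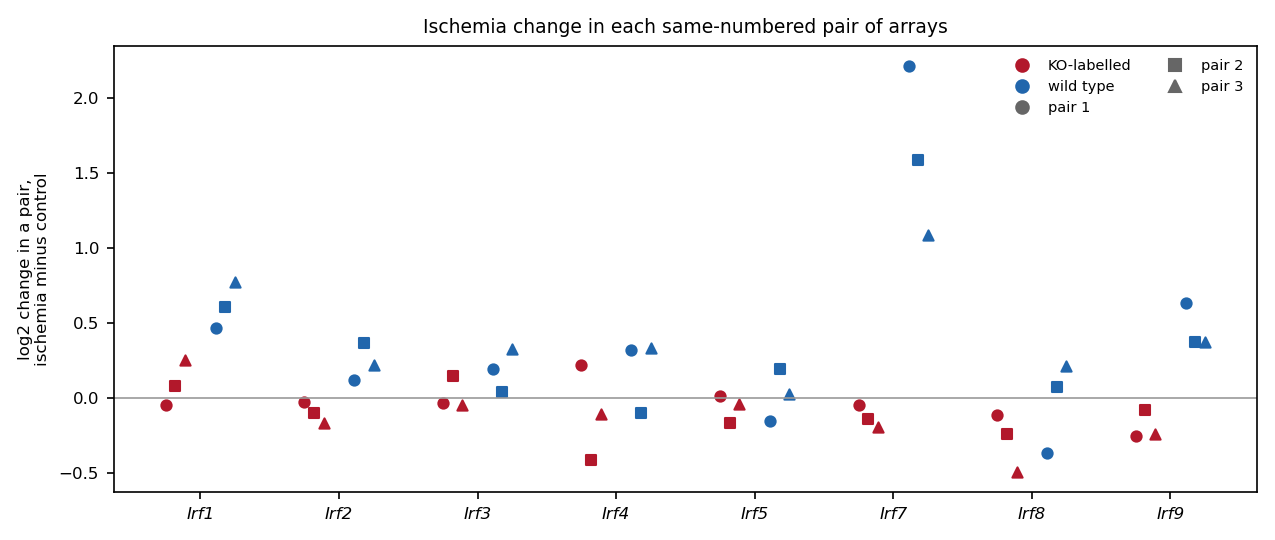
Ischemia minus control within each same-numbered pair of arrays (log2), for each member and genotype. The knockout-labelled pairs of Irf7 sit at -0.19 to -0.05 and its wild-type pairs at 1.08 to 2.21, and Irf9 separates in the same way over a smaller range.

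None of Irf3, Irf5, Irf8 and Irf4 passed any comparison in limma with or without the block, and those at an unadjusted p under 0.05 without the block were 0 in each comparison. Irf3, which starts the interferon response after Tlr4 and nucleic acid sensors, ranged from 8.16 to 8.32 log2 in knockout-labelled ischemia, 8.09 to 8.36 log2 in knockout-labelled control, 8.24 to 8.38 log2 in wild-type ischemia and 8.03 to 8.20 log2 in wild-type control arrays. Its wild-type ischemia change of 0.19 (95% interval -0.03 to 0.40, limma adjusted p = 0.386) did not pass. RNA level says nothing of the phosphorylation through which Irf3 acts.

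Irf5, which drives Il6, Tnf and Il12b in macrophages, lay between 9.82 and 10.29 log2 on every array. Its changes were -0.06 in knockout-labelled ischemia against control (95% interval -0.32 to 0.19), 0.02 in wild-type ischemia against control (-0.24 to 0.28) and 0.06 between knockout-labelled and wild-type cells after ischemia (-0.19 to 0.32). None of these passed in limma (adjusted p = 0.865, 0.950 and 0.944).

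Irf8, the myeloid member, lay between 9.85 and 10.57 log2. It was lower after ischemia in all 3 knockout-labelled pairs (-0.11, -0.24 and -0.49 log2), and the mean change of -0.28 did not pass (SE 0.14, limma adjusted p = 0.574, paired fit 0.221). In wild-type pairs the changes were -0.37, 0.08 and 0.22. Between genotypes Irf8 differed by -0.06 after ischemia (95% interval -0.37 to 0.24) and 0.20 in control cells (-0.11 to 0.50). Irf4 was dim, at 5.65 to 6.45 log2, close to the limit of 5.36 log2. Its largest change, -0.29 between knockout-labelled and wild-type cells after ischemia, did not pass (95% interval -0.66 to 0.08, limma adjusted p = 0.713).

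In order of group means, Irf7, Irf9 and Irf4 ran from wild-type ischemia through wild-type control and knockout-labelled control to knockout-labelled ischemia. For Irf7 and Irf9 no neighbouring groups in that order differed at an adjusted p under 0.05 without the block, while wild-type ischemia and wild-type control differed in the paired fit. Irf1 had knockout-labelled ischemia above knockout-labelled control, again below both wild-type groups. Irf8 and Irf5 were highest in knockout-labelled control cells, and Irf2 and Irf3 were lowest in wild-type control cells. No neighbours in the orders of Irf2, Irf3, Irf4, Irf5 and Irf8 that were compared passed a test.

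Across the 12 arrays Irf7 and Irf9 had a Pearson r of 0.990, and 0.972 after the group means were removed. Irf1 correlated with Irf7 at 0.820, and at 0.418 after group means were removed. Irf5 and Irf8 correlated at 0.736, and at 0.781 within groups. These values describe arrays that share the study's groups and, within a genotype, their numbers. Wild-type arrays weigh most in the values of Irf7, whose SD was 1.20 and 1.34 there after ischemia and in control cells. In knockout-labelled cells it was 0.22 and 0.29. The genes most like Irf7 were Cmpk2 (r = 0.994), Oas3 (0.994) and Oas2 (0.993), and those most like Irf9 were Oas2 (0.996), Cmpk2 (0.988) and Oasl2 (0.988). Irf1 was most like Trafd1 (0.946), Mlkl (0.926) and Il15ra (0.925). The nearest genes were Mtarc2 for Irf2 (0.942), Ppox for Irf3 (0.920), Tmco6 for Irf4 (0.927), Zfp64 for Irf5 (0.902) and Fam227a for Irf8 (0.953), all over 12 arrays.

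**Figure D4:**
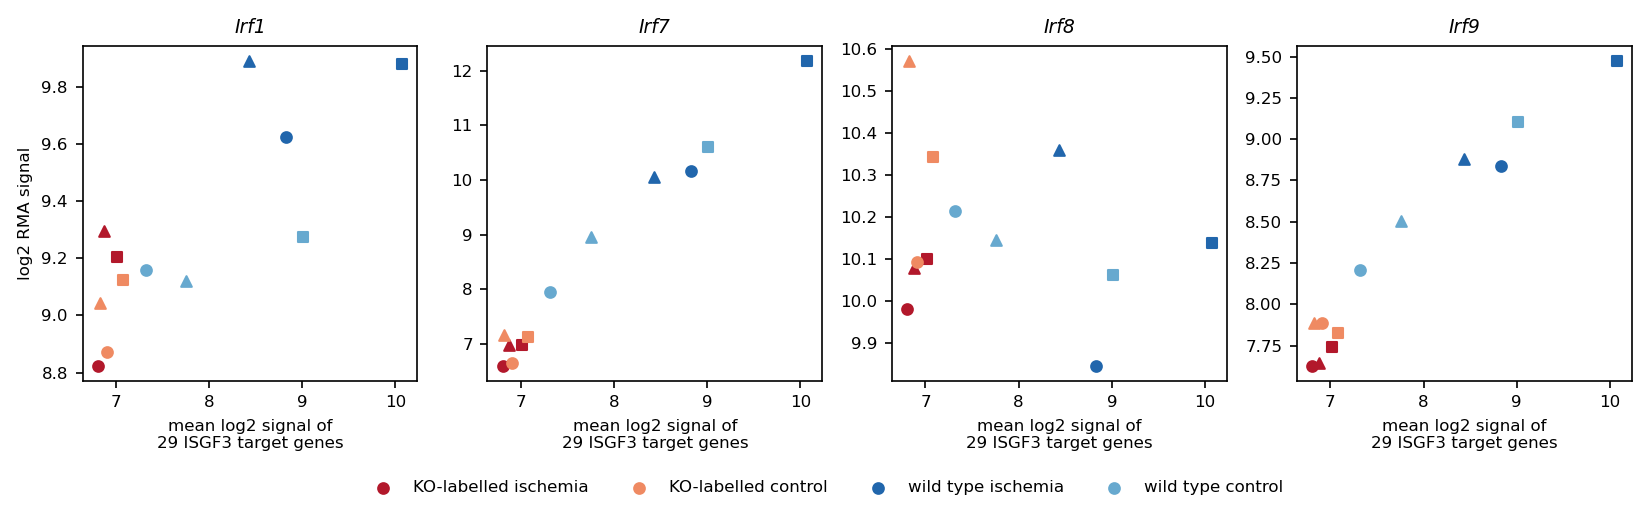
Signal of Irf1, Irf7, Irf8 and Irf9 on each array (log2, own axis per panel) against the mean log2 signal of 29 ISGF3 target genes on that array. Circles, squares and triangles are arrays 1, 2 and 3. Irf7 and Irf9 rise with the target mean over all arrays, with the wild-type arrays numbered 2 at 10.07 (ischemia) and 9.01 (control) on the horizontal axis, while Irf8 shows no such order.

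The genes that ISGF3 switches on were measured beside the factors. Of 31 listed targets 29 were tested, and after ischemia all 29 were lower in knockout-labelled than in wild-type cells, with a median of -2.08 log2 beside 0.01 for all genes. Of these, 16 passed in limma, where 0.714% of all genes tested did. The targets with the largest differences were the receptor transporter Rtp4 (-4.90, limma adjusted p = 0.00574) and Ifit1 (-3.96, limma adjusted p = 0.0161), while Ifit3 (-3.86) and Ifit2 (-3.84) did not pass (limma adjusted p = 0.120 and 0.0650). In knockout-labelled ischemia against control the 29 split into 12 higher and 17 lower (median -0.05), and 0 were called in limma with or without the block. In wild-type ischemia against control all 29 were higher, the median change being 1.00. Limma called 0 of them without the block (0.0131% of all genes), 26 in the paired fit (3.73%) and 2 with the random block (0.773%). Ifit2, which binds viral RNA, changed by 2.23 in the paired fit (limma paired-fit adjusted p = 8.26e-05), a call not made with the random block (limma adjusted p = 0.0745 with an estimated correlation). For the difference of ischemia changes all 29 were lower. Of them 12 were called in limma's paired fit (0.308% of all genes), 0 without the block and 0 with the random block. Irf7 correlated with the mean of these targets at 0.988 over 12 arrays and Irf8 at -0.247.

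For the list of Irf1 and interferon-gamma-type targets, 24 of 29 were tested. After ischemia 20 were lower in knockout-labelled cells, with a median of -0.68, and 2 passed in limma (0.714% of all genes). The guanylate-binding protein gene Gbp3 (-1.85, limma adjusted p = 0.0374) was among them, while the GTPase gene Irgm1 (-1.57, limma adjusted p = 0.0592) was not. In wild-type ischemia against control 19 were higher (median 0.51). Limma called 0 without the block (0.0131% of all genes), 12 in the paired fit (3.73%) and 2 with the random block (0.773%). The paired fit called Gbp3 (1.22, limma paired-fit adjusted p = 0.000408) and Irgm1 (0.95, limma paired-fit adjusted p = 0.00271), and the random block called neither (limma adjusted p = 0.0513 and 0.0708 with an estimated correlation). For the difference of ischemia changes limma's paired fit called 4 lower (0.295% of all genes), and 0 passed without the block or with the random block. The pair means of that list changed by -0.01, 0.04 and 0.07 in knockout-labelled cells and by 0.49, 0.56 and 0.34 in wild-type cells.

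Upstream of the factors, 23 of 26 sensors, adaptors and kinases were tested. Ddx58 was counted both here and among the ISGF3 targets, so these lists are not separate sets of genes. After ischemia 20 were lower in knockout-labelled cells (median -0.31) and 4 passed in limma (0.714% of all genes). Among the 4 were the RNA sensors Dhx58 (-2.12, limma adjusted p = 0.0228) and Ddx58 (-2.08, limma adjusted p = 0.0254). In control cells 17 were lower and 1 passed (0.0589% of all genes). It was Ikbke, the kinase that phosphorylates Irf3 and Irf7 (-0.88, SE 0.14, limma adjusted p = 0.0424). In wild-type ischemia against control 20 were higher. Limma called 0 without the block (0.0131% of all genes), 6 in the paired fit (3.73%) and 1 with the random block (0.773%). In the paired fit of knockout-labelled cells 0 were called (0.648% of all genes). The paired fit called Dhx58 (1.34, limma paired-fit adjusted p = 6.60e-05) and Tlr3 (0.79, limma paired-fit adjusted p = 0.00362). With the random block Dhx58 lay just inside the threshold (limma adjusted p = 0.0499995 with an estimated correlation) and Tlr3 did not pass (limma adjusted p = 0.0779). For the difference of ischemia changes only Dhx58 of this list passed, in the paired fit alone (limma paired-fit adjusted p = 0.00747, 0.676 with an estimated correlation). That fit called 0.308% of all genes. Of the interferon receptor, JAK and STAT genes 9 of 10 were tested, and Stat2, the partner of Irf9, was lower in knockout-labelled cells after ischemia (-1.80, limma adjusted p = 0.0252) and rose by 0.89 after ischemia in the paired fit of the wild type (limma paired-fit adjusted p = 0.000835). That rise did not pass without the block (limma adjusted p = 0.285) or with the random block (limma adjusted p = 0.0718 with an estimated correlation). Its difference of changes, -0.95, passed in the paired fit (limma paired-fit adjusted p = 0.0209) and not with the random block (limma adjusted p = 0.676 with an estimated correlation). Among 6 interferon ligand genes on the array, Ifnb1, Ifna4 and Ifna12 lay below the dim limit, and Ifna2, Ifna5 and Ifng did not pass in any comparison. In wild-type ischemia against control they changed by -0.41, -0.31 and 0.08 (limma adjusted p = 0.284, 0.273 and 0.637 without the block).

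For the lists of Irf8, Irf5 and Irf4, 16, 8 and 13 genes were tested. The paired fit of wild-type ischemia called 1, 1 and 2 of them, where 3.73% of all genes were called. Of 16 genes of the Irf8 and PU.1 list tested, 0 passed between genotypes in either condition (medians -0.07 after ischemia and 0.04 in control cells), and Aif1 rose by 0.52 in the paired fit of wild-type ischemia (limma paired-fit adjusted p = 0.0230). Cx3cr1 fell by 0.61 in the paired fit of knockout-labelled ischemia (limma paired-fit adjusted p = 0.0182). Neither passed without the block (limma adjusted p = 0.599 for Aif1 and 0.644 for Cx3cr1) or with the random block (limma adjusted p = 0.335 and 0.306 with an estimated correlation). Of 8 Irf5 targets tested 1 passed after ischemia (0.714% of all genes), the chemokine gene Ccl5 (-4.51, limma adjusted p = 0.000615), with a list median of -0.09. In wild-type ischemia against control Ccl5 changed by 1.57 (limma paired-fit adjusted p = 2.88e-05), just inside the threshold with the random block (limma adjusted p = 0.0499995 with an estimated correlation) and not past it without the block (limma adjusted p = 0.267). The difference of its changes, -1.93, passed in the paired fit (limma paired-fit adjusted p = 0.000591) and not with the random block (limma adjusted p = 0.676 with an estimated correlation). Of 13 genes of the Irf4 list 0 passed between genotypes, and Chil3 (1.20) and Arg1 (0.67) rose in the paired fit of wild-type ischemia (limma paired-fit adjusted p = 0.000277 and 0.00487). Neither passed without the block (limma adjusted p = 0.436 and 0.364) or with the random block (limma adjusted p = 0.170 and 0.121 with an estimated correlation). Of 11 Irf co-regulators 0 passed any comparison in limma with or without the block.

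Levels of cell type markers differed between arrays beside these results. The summed linear signal of the 14 microglia markers was 16397 to 19015 in knockout-labelled ischemia, 18987 to 21888 in knockout-labelled control, 17866 to 29213 in wild-type ischemia and 16301 to 28214 in wild-type control arrays. Both wild-type maxima were on the arrays numbered 2, those with the highest Irf7 and Irf9. For 9 monocyte and border macrophage markers the sums were 2928 to 3864, 2902 to 3596, 3561 to 5191 and 3202 to 4798 in the same order of groups. Both wild-type maxima were again on arrays numbered 2. Of these 9 markers 6 lay above the dim limit, the brightest being Mrc1, Ms4a7 and Pf4 at means of 11.17, 9.81 and 7.37 log2. Ccr2, Cd163 and Plac8 lay below it. For 8 dendritic cell markers, all above the limit, the sums were 4353 to 5330, 3183 to 4552, 2986 to 3126 and 2518 to 3558. Itgax, the brightest of the 8 at a mean of 11.53 log2, weighs most in these sums: the mean log2 of the list was 6.80 to 6.97 in knockout-labelled ischemia and 6.52 to 6.92 in wild-type ischemia arrays, which overlap. For 5 plasmacytoid dendritic cell markers, 4 above the limit, the sums were 769 to 815, 765 to 797, 718 to 1013 and 741 to 946. Both wild-type maxima were on arrays numbered 2 here too, and Tcf4, at a mean of 9.20 log2, weighs most. For 8 astrocyte markers, 6 above the limit, the sums were 926 to 1068, 852 to 956, 845 to 1703 and 838 to 1282.5. The highest sums of the oligodendrocyte lineage and fibroblast markers, 1313 and 846, were on wild-type control array 1. For 8 neutrophil markers, 5 above the limit, the sums were 348 to 370, 344 to 380, 304 to 343 and 324 to 343. None of the genes in these lists passed a comparison in limma without the block or with the random block. The paired fit called Cx3cr1, C1qa and C1qb of the microglia list and Pf4 of the monocyte and border macrophage list in knockout-labelled ischemia, and Aif1 and Pf4 in wild-type ischemia. Of 4 endothelial and mural markers tested it called Flt1 in both genotypes and Cldn5 in wild-type ischemia. The part of these levels in the Irf results was not tested. Without both wild-type arrays numbered 2, the changes of Irf7, Irf9 and Irf1 after ischemia between knockout-labelled and wild-type cells were -3.25, -1.18 and -0.65 (limma adjusted p = 3.00e-05, 0.000109 and 0.0517).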

How the data were processed

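Each sample was hybridised to 1 Affymetrix Mouse Gene 1.0 ST array. The authors deposited RMA values on a log2 scale, 1 per probe set, from Expression Console 1.1, per the submitters' processing notes. RMA includes quantile normalization, after which total RNA cannot be compared between arrays. Of 35557 probe sets, 21789 had 1 symbol, 1621 had several and 12147 were not listed; 21698 symbols were matched through Entrez identifiers to the GRCm38.p6 gene table. The brightest probe set stood for a gene, and genes not above the 30th percentile of probe set means (5.36 log2) were left out. Precision is limited by having 3 arrays per group, whose pairwise correlations were 0.976 or more. The extraction protocol names myocytes, while other labels name microglia.

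Groups came from the sample titles. Limma 3.58.1 in R 4.3.3 fitted 1 mean per group over 12 arrays (lmFit, eBayes), with Benjamini-Hochberg adjustment over 15273 genes and a threshold of 0.05; changes are differences of log2 signal. Same-numbered arrays of a genotype deviated together. Correlations of deviations were 0.316 to 0.490 for knockout-labelled and 0.478 to 0.735 for wild-type arrays. For other numbers they were -0.439 to 0.219 and -0.619 to 0.399. Deviations from a group mean cancel out within the group, so high same-number values by themselves push the other-number values down. This is a pairing from the data, not the labels. Between genotypes same-numbered values went down to -0.33. The paired fit has a fixed block for each genotype and number; a random block (consensus correlation 0.338) was run for every comparison. Members, lists and tests were chosen with earlier results of these data known. The rule for named genes was the 8 members, up to 4 genes with the largest change per list and comparison, and the 3 genes with the highest correlation per member; which of these the text prints was chosen after values were seen. Alternatives covered normalization, the dim filter, probe sets, blocks and left-out arrays. The fits of wild-type ischemia against control (without the block, paired and with the random block) were run on simulated data. That simulation gave every group the same spread and same-numbered arrays a higher correlation than the 0.338 estimated here. It is therefore no check of the paired fit on these arrays, and the other comparisons were not simulated.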

Additional observations from a re-analysis of the deposited data

Results flagged for a closer look

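For 3 members the sign of the ischemia change differed between genotypes: lower in all 3 knockout-labelled pairs and higher in all 3 wild-type pairs. Of all genes, 18.7% were lower in all 3 knockout-labelled pairs and 25.8% were higher in all 3 wild-type pairs. The share of genes with both is not given here. A fall in knockout-labelled cells was not shown for any of the 3. The paired-fit intervals there were -0.46 to 0.20 for Irf7, -0.40 to 0.02 for Irf9 and -0.30 to 0.11 for Irf2. The difference of changes, knockout-labelled minus wild type, was -1.75 log2 for Irf7, which passed in the paired fit (limma adjusted p = 0.00226). It was -0.65 for Irf9 (limma paired-fit adjusted p = 0.0899) and -0.33 for Irf2 (limma paired-fit adjusted p = 0.537), which did not pass. Without the block none of the 3 passed (limma adjusted p = 1.00 for each), nor with the random block (limma adjusted p = 0.676 for each with an estimated correlation).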

How the results depend on the processing

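In wild-type ischemia against control, 0 members (2 of all genes) were called as reported; 3 (570) were called in the paired replicate block fit, 3 (468) in that fit with only wild-type arrays, 1 (118) with a random replicate block, 1 (80) without both wild-type arrays numbered 2, and 2, 3 and 1 (143, 488 and 248) in the paired fit without wild-type pair 1, 2 and 3. Leaving out these arrays or pairs together, and fitting 1 genotype alone, were alternatives chosen after seeing the data. For the difference of ischemia changes the count was 0 as reported and with the random block (0 genes each), and 1 (47 genes) in the paired replicate block fit, also without any 1 wild-type pair (26 to 49 genes). In control cells 0 members (9 genes) differed between genotypes as reported and 1 (100) without both wild-type arrays numbered 2. After ischemia 3 (109) differed, and 0 to 3 when 1 array was left out (0 without knockout-labelled ischemia array 1 or 3, with 25 and 31 genes; 52 without array 2). The count of all genes there was 295 without both wild-type arrays numbered 2 and 236 with a block of 3 numbers across genotypes. No member was called in knockout-labelled ischemia against control under any of the 24 alternatives run. The block changed no other call on a member, and that block of 3 numbers changed no count of members. Irf4 was left out by a dim filter at the 50th percentile. The cause was not tested for any of these, except that leaving out arrays leaves fewer samples.

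Among changes that passed no test, signs turned for Irf5 in wild-type ischemia (-0.076 with quantile normalization, -0.064 without both wild-type arrays numbered 2 or in the paired fit without pair 2, -0.041 to 0.13 with 1 array left out), Irf8 there (0.034 with median centring, 0.15 in the paired fit without pair 1, -0.15 to 0.11 with 1 array left out), and in knockout-labelled ischemia for Irf1 (-0.069 with all probe sets averaged), Irf3 (-0.032 with quantile normalization, -0.041 to 0.096 with 1 array left out) and Irf4 (-0.24 to 0.028 with 1 array left out). Between genotypes they turned for Irf4 in control cells (0.0078 with quantile normalization, 0.0066 with median centring, -0.14 to 0.13 with 1 array left out) and, after ischemia, for Irf5 (-0.046 to 0.13) and Irf8 (-0.20 to 0.061) with 1 array left out. The difference of changes of Irf5 was 0.000384 without both wild-type arrays numbered 2 and in the paired fit without pair 2.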
